A study of Mus musculus with 12 samples.

Results

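The cytochrome P450 genes of the mouse were followed across 4 groups of tongue samples. They were taken as every gene whose symbol is Cyp followed by a digit, apart from the 3 retinoic acid hydroxylase genes Cyp26a1, Cyp26b1 and Cyp26c1. This left 98 genes of 23235 gene rows, 5 of them with a pseudogene symbol. Of the 98, 26 reached 1 FPKM (sequenced fragments divided by transcript length and by library size, so that levels of different genes can be compared) in any group and 19 did so in every group.

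Poly-A RNA was sequenced from the tongues of C57BL/6 mice aged 31 weeks. The 12 samples belong to 4 groups of 3 mice, which the labels write as 4-NQO/EtOH, 4-NQO/Untr., V.C./EtOH and V.C./Untr. 4-NQO is 4-nitroquinoline oxide, a chemical carcinogen that damages DNA and raises tumours in the mouse mouth, EtOH is ethanol, and V.C. is left as the labels give it. The tables used here name the groups only as 4, 3, 2 and 1 and hold 1 level per gene and group, as the authors computed it, together with their test of every pair of groups, so the comparisons are between numbered groups and no treatment is attached to a number. Values per mouse were not used here, the depth of each sample is unknown, and errors are the SE of a group level that the authors' test statistic implies. Whether that statistic covers all of the variation between the 3 mice of a group is not known here.

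Cytochrome P450s are heme enzymes that split molecular oxygen and place an oxygen atom on a substrate, with electrons passed on by P450 reductase in the endoplasmic reticulum or by ferredoxin in mitochondria. Families 1 to 3 are best known for oxidising foreign compounds, a reaction that can detoxify a compound or turn it into a DNA-reactive one, while family 4 oxidises fatty acids and other families make or break down sterols, bile acids, steroid hormones and vitamin D. Liver holds the highest levels of many of them, and surface epithelia such as those of nose, lung, gut and mouth carry sets of their own.

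The P450 genes of these tongues were led by Cyp2f2, a gene known for activating naphthalene in the airway of the mouse. In groups 4, 3, 2 and 1 it made up 25.4%, 24.2%, 40.5% and 42% of the summed P450 level. The summed level of the 98 genes was 205 FPKM in group 4, 196 FPKM in group 3, 248 FPKM in group 2 and 278 FPKM in group 1. Without Cyp2f2 the sum was 153, 149, 148 and 161 FPKM in groups 4, 3, 2 and 1, a much narrower range. The 3 genes with the highest levels were Cyp2f2, Cyp4f39 and Cyp51 in groups 4 and 3, Cyp2f2, Cyp27a1 and Cyp4f39 in group 2, and Cyp2f2, Cyp2a5 and Cyp27a1 in group 1. Together these 3 held 54.2%, 55.2%, 55.4% and 60.9% of the sum in groups 4, 3, 2 and 1. In groups 4, 3, 2 and 1, 5, 4, 6 and 7 members had levels of 10 FPKM or more.

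**Figure D1:**
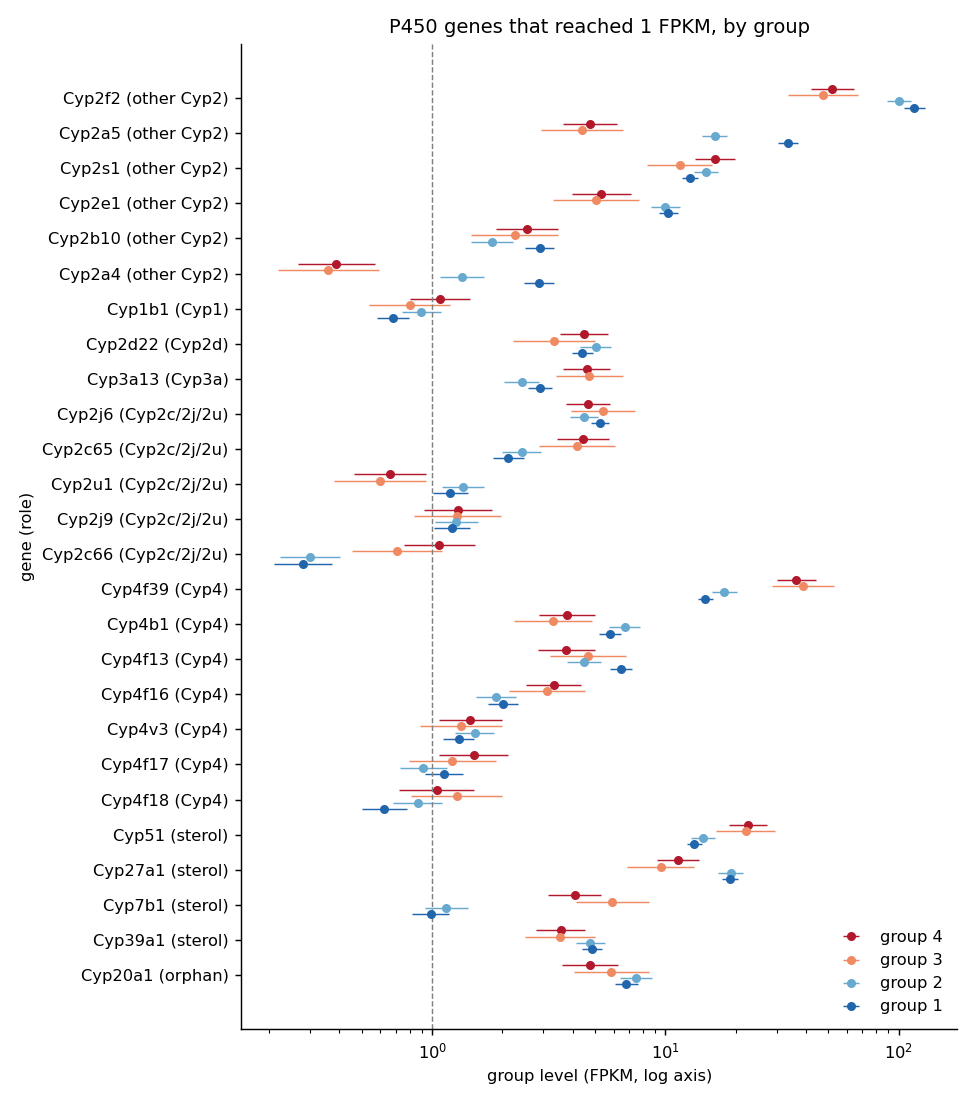
Group levels of the 26 P450 genes that reached 1 FPKM, ordered by role, on a logarithmic FPKM axis; points are group levels, horizontal bars span 1 SE on the log2 scale, and the dashed line marks 1 FPKM. Groups 4 and 3 sit left of groups 2 and 1 for Cyp2f2, Cyp2a5, Cyp2e1 and Cyp2a4 and right of them for Cyp4f39, Cyp51 and Cyp7b1.

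A member was counted as higher or lower in a pair of groups where the authors tested it, at least 1 of the groups had 1 FPKM and the authors' q fell under 0.05. Of the 98, only the 26 that reached 1 FPKM could meet this, and 62 were tested in no pair. Of the 26, 5 met it in any pair, namely Cyp2a5, Cyp2a4, Cyp2f2, Cyp4f39 and Cyp7b1, with 12 calls between them. The share of all genes that passed in any pair was not computed, so shares are given pair by pair. In group 4 over group 1, 2 of the 26 members tested were higher and 3 were lower. That is 19.2% of the members, against 8.9% of all 13111 genes tested in that pair, with 5% higher and 3.91% lower. In group 3 over group 1, 1 member was higher and 2 were lower of 24, which is 12.5% against 2.8% of all genes tested, with 2.52% higher and 0.282% lower. In these 2 pairs the shares of the members lay above those of all genes, but they rest on few genes, and most of the 26 did not pass in any pair. Cyp2a5 and Cyp2a4 are near-identical copies whose single levels are uncertain, as given below, so their calls may not be separate and the shares may be too high. With Bonferroni adjustment within the pair, the calls that remained were Cyp2a5 and Cyp2a4 in group 4 over group 1 and Cyp2a5 in group 3 over group 1.

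Against group 2 the counts were smaller. In group 4 over group 2, 1 member was higher and 1 lower of 26, or 7.69% against 5.55% of all genes (3.31% higher and 2.25% lower), which is near the background by this count. By an unadjusted p under 0.05 the members stood above it, with 9 of 26 against 18.9% of all genes. In group 3 over group 2, 1 member was higher and 0 lower of 24, or 4.17% against 1.84% of all genes (1.61% higher and 0.229% lower). Before adjustment, p was under 0.05 for 6 of these 24 members and for 10.3% of all genes. In group 2 over group 1, 0 were higher and 1 was lower of 23, or 4.35% against 0.899% of all genes (0.594% higher and 0.305% lower). Before adjustment, p was under 0.05 for 2 of these 23 members and for 3.4% of all genes. A share of this kind rests on a single gene, so the last 2 comparisons describe Cyp7b1 and Cyp2a5 and not the family.

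No P450 gene passed the authors' deposited test in group 4 over group 3. There, 0 of 24 members passed in either direction, against 0.294% of all genes (0.17% higher and 0.124% lower), and 0 members had an unadjusted p under 0.05, against 0.813% of all genes. The differences ran between -0.45 and 0.47 on the log2(FPKM + 1) scale. The SE of a group level was also widest here, with a median over the expressed members of 0.397 and 0.549 for groups 4 and 3, against 0.250 and 0.167 for groups 2 and 1, on the log2 scale. A member that missed the threshold in group 4 over group 3 is therefore not shown to be alike in both.

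The middle of the family at 1 FPKM lay near 0 in all pairs, with -0.16 as the value farthest from it. The median difference of the members tested was 0.03 on the log2(FPKM + 1) scale in group 4 over group 1, against -0.08 for all genes tested, and -0.16 in group 3 over group 1, against -0.04 for all genes. It was 0.03 against -0.09 for all genes in group 4 over group 2, -0.05 against -0.04 in group 3 over group 2, 0.01 against 0.02 in group 2 over group 1, and 0.07 against -0.04 in group 4 over group 3. Among the more abundant members the median was below 0 in the comparisons of group 4 and of group 3 with groups 1 and 2. It was -0.50 for the 11 members at 5 FPKM in group 4 over group 1 and -0.62 for the 10 in group 4 over group 2. In group 2 over group 1 it was 0.06 for the 12 members. The limit of 5 FPKM leaves out Cyp7b1, which rose, in group 4 over group 1 and in group 4 over group 2, and keeps it in the comparisons of group 3. Of the 26 expressed members, 9 were lower in both groups 4 and 3 than in both groups 2 and 1, which is 34.6% against 45.1% of 13113 genes tested. Another 10 were higher in both, which is 38.5% against 34.3% of the same genes. The pairs share groups with each other, so these are descriptions of 1 set of 4 levels and not separate comparisons. Genes at 5 FPKM or more had a median of -0.15 in group 4 over group 1, -0.13 in group 4 over group 2 and -0.09 in group 3 over group 1, and centring on these values moves each difference up by that amount.

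**Figure D2:**
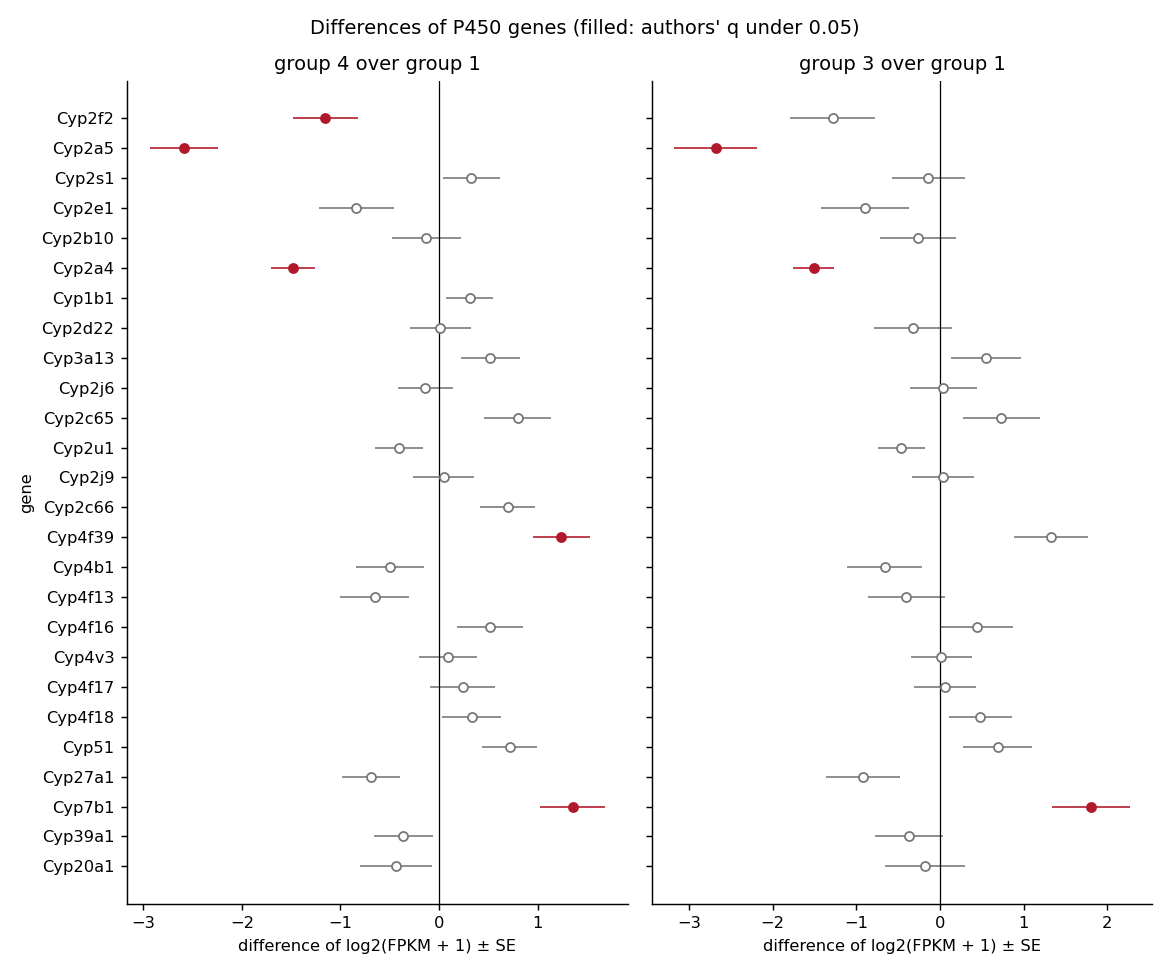
Differences of log2(FPKM + 1) with their SE for the P450 genes that reached 1 FPKM in the pair, in group 4 over group 1 on the left and group 3 over group 1 on the right; filled red points had a q under 0.05 in the authors' deposited table. Cyp2a5 and Cyp2a4 lie far to the left and Cyp7b1 to the right in both panels, Cyp2f2 and Cyp4f39 are filled in the left panel, and Cyp1b1 and Cyp2c66 are not drawn on the right because neither of the 2 groups reached 1 FPKM there.

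Cyp2a5, which hydroxylates coumarin and also acts on nicotine and nitrosamines, showed the largest fall among the P450 genes on the log2(FPKM + 1) scale. In group 4 over group 1 Cyp2a4 fell slightly more by fold, and Cyp2f2 fell more in FPKM. Its level was 4.76 ± 1.27 FPKM in group 4, 4.40 ± 1.78 FPKM in group 3, 16.3 ± 2.0 FPKM in group 2 and 33.6 ± 3.36 FPKM in group 1 (SE). The levels of groups 4 and 3 lay within 1 SE of each other, group 2 stood above both, and group 1 stood above group 2. The gene was 7.05-fold lower in group 4 than in group 1, a difference of -2.59 ± 0.35 on the log2(FPKM + 1) scale with q = 3.43e-09 in the authors' deposited table. It was 7.63-fold lower in group 3 than in group 1, with a difference of -2.68 ± 0.49 and q = 1.443e-04 in the authors' deposited table. It was also the only member that passed in group 2 over group 1, 2.07-fold lower in group 2 with a difference of -1.003 ± 0.220 and q = 6.52e-04 in the authors' deposited table.

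Set against group 2, Cyp2a5 was 3.41-fold lower in group 4 (-1.58 ± 0.36 on the log2(FPKM + 1) scale, q = 0.00262 in the authors' deposited table). The difference of group 3 from group 2 was of similar size, -1.68 ± 0.50, but its q of 0.0597 in the authors' deposited table missed the threshold. Groups 4 and 3 differed by 0.09 ± 0.57. Group 2 below group 1 and group 4 below group 2 thus each passed as a pair of their own.

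Cyp2a4, a close relative of Cyp2a5 that hydroxylates testosterone in the mouse, had the same profile at a lower level. It had 0.388 ± 0.147 FPKM in group 4, 0.359 ± 0.179 FPKM in group 3, 1.34 ± 0.29 FPKM in group 2 and 2.87 ± 0.43 FPKM in group 1. Groups 4 and 3 were below 1 FPKM, and the gene was 7.39-fold lower in group 4 than in group 1 (-1.48 ± 0.22 on the log2(FPKM + 1) scale, q = 1.332e-04 in the authors' deposited table). The difference of group 3 from group 1 was -1.51 ± 0.25 (q = 0.0046 in the authors' deposited table). The difference of group 2 from group 1 was -0.73 ± 0.24 and did not pass, with q = 0.096 in the authors' deposited table, and that of group 4 from group 2 was -0.75 ± 0.24, with q = 0.105 there.

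Cyp2a5 and Cyp2a4 are near-identical copies, so the level of each is uncertain. Their coding sequences, both 1485 bases in the GENCODE M1 transcripts, differed at 23 positions (98.45% identity), with an identical run of up to 216 bases, and 38.1% of all 50-base windows were the same in both. In groups 4, 3, 2 and 1 the ratio of Cyp2a5 to Cyp2a4 was 12.3, 12.3, 12.1 and 11.7. How the authors' counting shared out reads that fit both was not tested. Their sum was 5.15 FPKM in group 4, 4.76 FPKM in group 3, 17.6 FPKM in group 2 and 36.5 FPKM in group 1. The stretch of coding exon 4 with the most differences between them (coding bases 536 to 625) is shown because it is where reads could best tell them apart, with the 4 bases that differ in capitals. In mm9 it lies at chr7:27622152-27622241 for Cyp2a5 and chr7:27093989-27094078 for Cyp2a4, both on the plus strand.
Cyp2a5: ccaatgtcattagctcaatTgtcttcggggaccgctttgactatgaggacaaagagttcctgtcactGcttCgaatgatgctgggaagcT
Cyp2a4: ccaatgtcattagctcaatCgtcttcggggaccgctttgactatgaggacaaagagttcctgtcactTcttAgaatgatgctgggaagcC

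The copies also share the sequence in front of the gene. The windows of 249 bases upstream of the start, taken from RefSeq promoters of GRCm38.p6 (chr7:26835089-26835337 for Cyp2a5 and chr7:26306943-26307191 for Cyp2a4, plus strand), differed at 4 bases, or 98.39% identity. They are shown because the listed levels of both copies were lower in groups 4 and 3, within the uncertainty given above, with the differing bases in capitals.
Cyp2a5: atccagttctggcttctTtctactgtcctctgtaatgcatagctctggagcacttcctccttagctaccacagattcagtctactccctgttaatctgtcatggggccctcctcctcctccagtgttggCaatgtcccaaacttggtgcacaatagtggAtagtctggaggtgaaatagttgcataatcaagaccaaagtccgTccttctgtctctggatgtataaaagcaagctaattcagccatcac
Cyp2a4: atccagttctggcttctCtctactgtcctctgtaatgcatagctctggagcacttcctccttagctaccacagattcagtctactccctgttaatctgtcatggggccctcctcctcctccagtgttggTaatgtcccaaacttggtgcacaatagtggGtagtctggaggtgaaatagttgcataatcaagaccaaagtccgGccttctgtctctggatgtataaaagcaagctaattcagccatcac
Both windows hold the letters TATAAA near their end. That motif, searched on both strands in the 250 bases upstream of the start, was found in 26 of the 70 members that matched a RefSeq promoter (37.1%) and in 12.4% of 32851 promoters of all genes. Cyp2e1, Cyp2c65 and Cyp2c66 hold it too, and Cyp2f2, Cyp4f39 and Cyp51 do not.

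Cyp2f2, the most abundant P450 gene, was 52.0 ± 10.9 FPKM in group 4, 47.5 ± 16.4 FPKM in group 3, 101 ± 12 FPKM in group 2 and 117 ± 12 FPKM in group 1. Groups 4 and 3 lay at a similar low level and groups 2 and 1 at a similar high one. The gene was 2.25-fold lower in group 4 than in group 1, -1.15 ± 0.33 on the log2(FPKM + 1) scale, with q = 0.0225 in the authors' deposited table. The difference of group 3 from group 1 was -1.28 ± 0.51 and did not pass (q = 0.2002 in the authors' deposited table), nor did that of group 4 from group 2 at -0.94 ± 0.34 (q = 0.131 there). After centring on the median of well expressed genes the difference of group 4 from group 1 was -1.01 and no longer passed.

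Cyp2e1, which oxidises ethanol and activates nitrosamines, did not pass in any pair. It had 5.32 ± 1.57 FPKM in group 4, 5.06 ± 2.15 FPKM in group 3, 9.97 ± 1.43 FPKM in group 2 and 10.3 ± 0.94 FPKM in group 1. Its levels formed a lower pair in groups 4 and 3 and a higher pair in groups 2 and 1. The difference of group 4 from group 1 was -0.84 ± 0.38 on the log2(FPKM + 1) scale (q = 0.35 in the authors' deposited table), and that of group 3 from group 1 was -0.90 ± 0.52 (q = 0.635 there). Group 2 differed from group 1 by -0.04 ± 0.22. The gene lies on mm9 chromosome 7 at 147949731 to 147960876, far from the other Cyp2 genes of that chromosome.

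Cyp2s1, a P450 known from epithelia outside the liver, stayed between 11.5 and 16.3 FPKM. It had 16.3 ± 3.2 FPKM in group 4, 11.5 ± 3.7 FPKM in group 3, 14.9 ± 1.8 FPKM in group 2 and 12.8 ± 1.0 FPKM in group 1, with a difference of 0.33 ± 0.28 on the log2(FPKM + 1) scale in group 4 over group 1. These SEs overlap, and the order of the groups was not that of its neighbours. Cyp2b10, which the constitutive androstane receptor induces in mouse liver, had 2.56, 2.26, 1.80 and 2.89 FPKM in groups 4, 3, 2 and 1. Of the 16 Cyp2 genes known mainly for foreign compounds (those outside the 2c, 2d, 2j, 2r and 2u subfamilies), 6 reached 1 FPKM. Their summed level was 82.4 FPKM in group 4, 71.9 FPKM in group 3, 146 FPKM in group 2 and 180 FPKM in group 1.

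**Figure D3:**
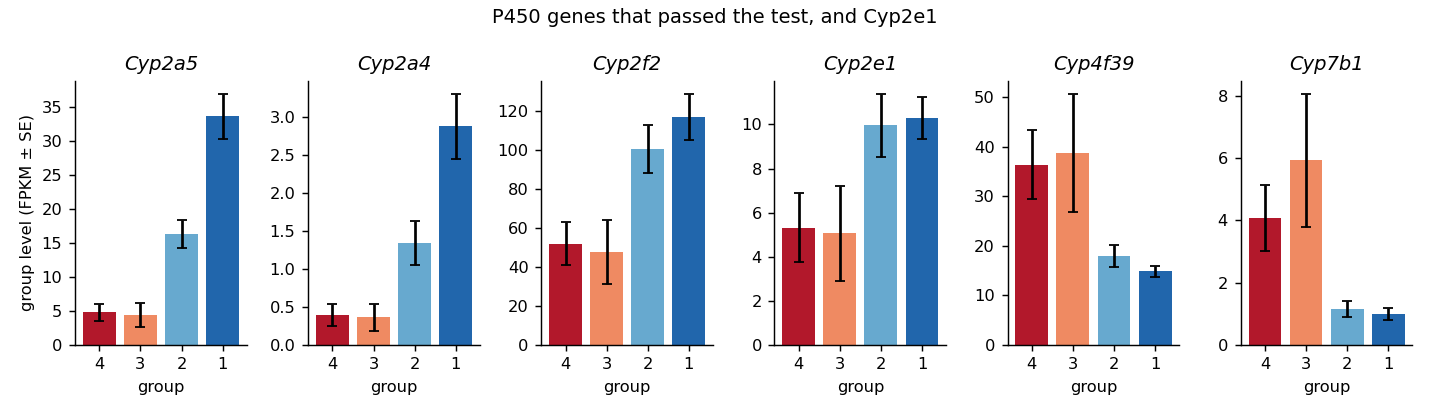
Group levels in FPKM of the 5 P450 genes that passed the test in any pair, and of Cyp2e1, which did not; bars are group levels from 3 mice each, error bars are the SE implied by the authors' statistic, and each panel has its own axis from 0. Cyp2a5 and Cyp2a4 are lowest in groups 4 and 3, higher in group 2 and highest in group 1, Cyp2f2 and Cyp2e1 fall into a low and a high pair, and Cyp4f39 and Cyp7b1 are high in groups 4 and 3.

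The 3 P450 genes that passed in the downward direction, among them the near-identical copies Cyp2a5 and Cyp2a4, lie in the Cyp2 stretch of chromosome 7. In mm9 it runs from 26587495 to 27943583, or 1356 kb, and holds 13 P450 genes and 5 other genes, 0 of which were tested at 1 FPKM. The P450 genes at 1 FPKM there were 5, namely Cyp2s1, Cyp2b10, Cyp2a4, Cyp2a5 and Cyp2f2, and 3 of them were lower in group 4 than in group 1. Genes that fell lay beside genes at other levels. Cyp2g1 and Cyp2a22, the P450 genes on either side of Cyp2a5, were under 0.1 FPKM in all 4 groups, and Cyp2s1 and Cyp2b10 at the start of the stretch did not pass. Cyp2b19, a keratinocyte P450 of mouse skin that lies between Cyp2a4 and Cyp2a5, had 0.44, 0.251, 0.0872 and 0.103 FPKM in groups 4, 3, 2 and 1, all under the threshold.

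**Figure D4:**
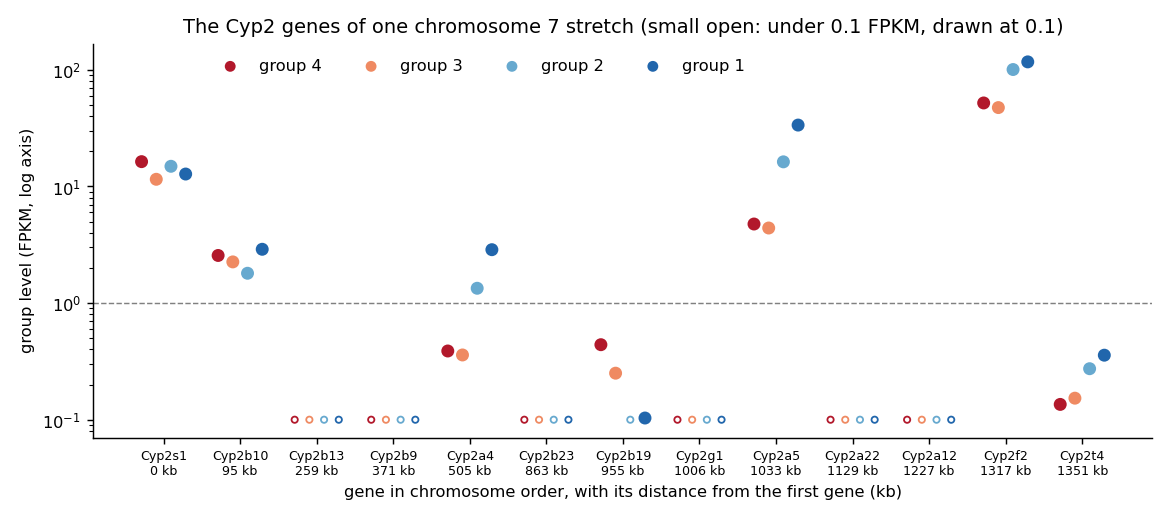
Group levels in FPKM (log axis) of the 13 Cyp2 genes of the chromosome 7 stretch in chromosome order, with the distance of each from the first gene in kb; small open points are levels under 0.1 FPKM drawn at 0.1, and the dashed line marks 1 FPKM. The falling genes Cyp2a4, Cyp2a5 and Cyp2f2 stand apart from Cyp2s1 and Cyp2b10, and 6 genes of the stretch have open points in all 4 groups.

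The other P450s of foreign compounds were low in tongue. Of the Cyp1 family, whose members are textbook targets of the aryl hydrocarbon receptor, only Cyp1b1 reached 1 FPKM, with 1.08, 0.801, 0.899 and 0.678 FPKM in groups 4, 3, 2 and 1. Cyp1a1 was at most 0.369 FPKM and did not pass in any pair. Cyp1b1 is the member just inside the threshold of 1 FPKM together with Cyp2c66 at 1.07 FPKM, and Cyp2c44 and Cyp46a1 at 0.466 FPKM are just outside it. Of 10 Cyp2d genes only Cyp2d22 was expressed, with 4.46, 3.32, 5.02 and 4.41 FPKM in groups 4, 3, 2 and 1. Of 8 Cyp3a genes only Cyp3a13 was, with 4.60, 4.72, 2.42 and 2.90 FPKM, and its difference of 0.52 ± 0.30 on the log2(FPKM + 1) scale in group 4 over group 1 did not pass.

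The Cyp2c, Cyp2j and Cyp2u genes, which turn arachidonic acid and other fatty acids into epoxides and alcohols, had 5 of 24 members at 1 FPKM. Cyp2j6 had no call, with 4.66, 5.42, 4.49 and 5.24 FPKM in groups 4, 3, 2 and 1. Cyp2c65 had 4.43 ± 1.16 FPKM in group 4, 4.19 ± 1.57 FPKM in group 3, 2.42 ± 0.47 FPKM in group 2 and 2.12 ± 0.32 FPKM in group 1. Its neighbour Cyp2c66 had 1.07, 0.704, 0.300 and 0.278 FPKM in the same groups. Both were highest in group 4, but neither passed in group 4 over group 1, with q = 0.221 for Cyp2c65 and q = 0.0779 for Cyp2c66 in the authors' deposited table. Cyp2c66 did pass there when p-values were adjusted within the pair or differences were centred. Cyp2j9 had 1.29, 1.28, 1.27 and 1.22 FPKM and Cyp2u1 0.658, 0.598, 1.36 and 1.197 FPKM in groups 4, 3, 2 and 1, and neither passed in any pair tested. Cyp2c65 and Cyp2c66 are the only members at 1 FPKM of the 15 P450 genes in the Cyp2c stretch of mm9 chromosome 19 (39081509 to 40261776, 1180 kb).

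Cyp4f39 was the main P450 gene of family 4 and rose. It is the mouse counterpart of human CYP4F22, which hydroxylates the very long fatty acids of skin barrier ceramides. Its level was 36.4 ± 7.0 FPKM in group 4, 38.8 ± 11.9 FPKM in group 3, 17.9 ± 2.2 FPKM in group 2 and 14.8 ± 1.1 FPKM in group 1. Groups 4 and 3 were high and groups 2 and 1 low, and neither group 4 from group 3 nor group 2 from group 1 passed. The gene was 2.46-fold higher in group 4 than in group 1, by 1.24 ± 0.29 on the log2(FPKM + 1) scale, with q = 0.00132 in the authors' deposited table. The difference of group 3 from group 1 was 1.33 ± 0.44 with q = 0.0683 in the authors' deposited table, and that of group 4 from group 2 was 0.99 ± 0.32 with q = 0.0552 there, so neither passed. Both passed after centring on the median of well expressed genes, at 1.42 for group 3 over group 1 and 1.12 for group 4 over group 2.

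Cyp4f39 is at mm9 chromosome 17, 32589668 to 32630265, the first gene of a stretch of 513 kb with 8 P450 genes. Of these, 4 reached 1 FPKM and only Cyp4f39 passed in group 4 over group 1, and of the 5 other genes within the stretch 3 were tested and 0 passed. The expressed Cyp4f genes ordered the groups differently. Cyp4f16 had 3.32, 3.11, 1.88 and 2.02 FPKM in groups 4, 3, 2 and 1, whereas Cyp4f13, at the far end, had 3.76, 4.65, 4.48 and 6.47 FPKM. Cyp4f17 had 1.51, 1.22, 0.916 and 1.12 FPKM, and Cyp4v3, on chromosome 8, had 1.46, 1.33, 1.52 and 1.30 FPKM. None of these 4 genes passed in any pair. Cyp4f18, which breaks down leukotriene B4 in mouse neutrophils, had 1.04, 1.27, 0.867 and 0.623 FPKM. Neutrophil markers summed to 6266, 4756, 27.1 and 16.1 FPKM in the same groups, and most of this sum was S100a8 and S100a9. S100a8 had 3184, 2602, 13.0 and 6.67 FPKM and S100a9 2974, 2148, 12.3 and 7.88 FPKM. Ngp had 37.2, 0.0973, 0.063 and 0.139 FPKM and Camp 47.6, 0.266, 0 and 0 FPKM, high in group 4 only. Csf3r, at 0.891, 1.43, 0.320 and 0.249 FPKM, was highest in group 3. The part of neutrophils in the level of Cyp4f18 was not tested.

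The 250 bases upstream of Cyp4f39 in the RefSeq promoters (GRCm38.p6, chr17:32452473-32452722, plus strand) are shown because this gene rose while its neighbours did not pass. The capitals mark the letters GCGTG, the core that the aryl hydrocarbon receptor binds, and CACGC, the same core on the other strand.
Cyp4f39: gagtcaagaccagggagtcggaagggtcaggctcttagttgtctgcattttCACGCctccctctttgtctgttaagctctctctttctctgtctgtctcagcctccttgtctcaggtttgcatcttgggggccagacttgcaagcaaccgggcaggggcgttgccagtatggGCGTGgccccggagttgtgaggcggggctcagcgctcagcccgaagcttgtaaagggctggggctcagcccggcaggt
The core was found in 16 of 70 members (22.9%) and in 28.2% of 32851 promoters, and a match is a description of the letters and not a binding site. Of the other motifs searched on both strands, TGACNNNGC was found in 2 members (2.86%) against 10.2% of all promoters, and TCACNCCAC in 0 members against 1.05%. The Cyp4f39 window held 2 matches of GCGTG and 0 of the other 3 motifs, so no match in it overlaps another motif.

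Cyp4b1, which oxidises fatty acids and activates furan toxins, had 3.80 ± 1.05 FPKM in group 4, 3.30 ± 1.28 FPKM in group 3, 6.68 ± 1.01 FPKM in group 2 and 5.79 ± 0.63 FPKM in group 1. Its difference of -0.50 ± 0.34 on the log2(FPKM + 1) scale in group 4 over group 1 did not pass (q = 0.776 in the authors' deposited table). Cyp4f13 differed by -0.65 ± 0.35 there, also without a call. The family 4 sum was higher in groups 4 and 3, at 51.6 and 54.1 FPKM, than in groups 2 and 1, at 34.6 and 32.6 FPKM, and Cyp4f39 was the largest part of it in each group. The Cyp4a genes, fatty acid hydroxylases that PPARα induces in liver, had at most 0.104 FPKM in any group.

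The sterol P450s held nearly the same sum in all groups, 42.0, 41.6, 40.1 and 38.8 FPKM in groups 4, 3, 2 and 1, while the levels of single members ran in opposite directions. Cyp7b1, the oxysterol hydroxylase that clears hydroxylated cholesterols, rose. It had 4.08 ± 1.07 FPKM in group 4, 5.93 ± 2.15 FPKM in group 3, 1.15 ± 0.25 FPKM in group 2 and 0.986 ± 0.181 FPKM in group 1. Groups 4 and 3 were high and did not differ from each other beyond their SEs, and groups 2 and 1 were both near 1 FPKM.

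In group 4 Cyp7b1 was 4.14-fold higher than in group 1, by 1.36 ± 0.33 on the log2(FPKM + 1) scale, with q = 8.879e-04 in the authors' deposited table. In group 3 it was 6.01-fold higher than in group 1, by 1.80 ± 0.47, with q = 0.00102 in the authors' deposited table. It is the only P450 gene that passed in both groups 4 and 3 against both groups 2 and 1, but Bonferroni adjustment within the pair ended all 4 of these calls and a q under 0.01 ended that of group 4 over group 2. Against group 2 it was higher by 1.24 ± 0.34 in group 4 (q = 0.0103 in the authors' deposited table) and by 1.69 ± 0.48 in group 3 (q = 0.00647 there). The gene spans mm9 chromosome 3, 17971950 to 18143338.

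Cyp27a1, the mitochondrial enzyme that hydroxylates the sterol side chain, had 11.3 ± 2.4 FPKM in group 4, 9.54 ± 3.15 FPKM in group 3, 19.02 ± 2.27 FPKM in group 2 and 18.9 ± 1.5 FPKM in group 1. It was lower in groups 4 and 3 without passing, at -0.69 ± 0.30 on the log2(FPKM + 1) scale in group 4 over group 1 (q = 0.283 in the authors' deposited table) and -0.92 ± 0.44 in group 3 over group 1 (q = 0.417 there). Cyp39a1, which hydroxylates oxysterols, had 3.55, 3.52, 4.76 and 4.85 FPKM in groups 4, 3, 2 and 1. The liver enzymes of bile acid synthesis were missing or nearly so, with Cyp7a1 listed at 0 in all groups and Cyp8b1 at no more than 0.304 FPKM.

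Cyp51, the lanosterol demethylase and the P450 step of cholesterol synthesis, had 22.6 ± 4.2 FPKM in group 4, 22.1 ± 6.5 FPKM in group 3, 14.5 ± 1.7 FPKM in group 2 and 13.3 ± 1.0 FPKM in group 1. It did not pass, at 0.72 ± 0.28 on the log2(FPKM + 1) scale in group 4 over group 1 (q = 0.168 in the authors' deposited table). Other genes of the same pathway did. Of 15 sterol synthesis genes tested at 1 FPKM, 4 were higher in group 4 than in group 1 and 0 lower, against 5% higher and 3.91% lower of all genes, and the median was 0.49 against -0.08 for all genes. The 4 were Idi1, Sqle, Lss and Hsd17b7, all enzymes of the pathway. Sqle, the enzyme that makes the precursor of lanosterol, had 31.1, 31.1, 13.7 and 11.5 FPKM in groups 4, 3, 2 and 1, and Lss, which closes that precursor into lanosterol, the substrate of Cyp51, had 13.2, 12.2, 7.10 and 5.47 FPKM.

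The difference of Cyp51 was thus above the median of these genes and below each of the 4 that passed. In group 3 over group 1, 2 of 15 sterol synthesis genes were higher (Sqle and Hsd17b7) and 0 lower, against 2.52% and 0.282% of all genes, with a median of 0.53, and Cyp51 stood at 0.69 ± 0.42. In group 4 over group 2, 3 of 15 were higher (Idi1, Sqle and Hsd17b7) and 0 lower, against 3.31% and 2.25% of all genes, and Cyp51 stood at 0.60 ± 0.30. In group 2 over group 1, in group 3 over group 2 and in group 4 over group 3 the count was 0 in both directions by the authors' deposited test, with 0, 3 and 0 of 15 genes at an unadjusted p under 0.05, against 3.4%, 10.3% and 0.813% of all genes.

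**Figure D5:**
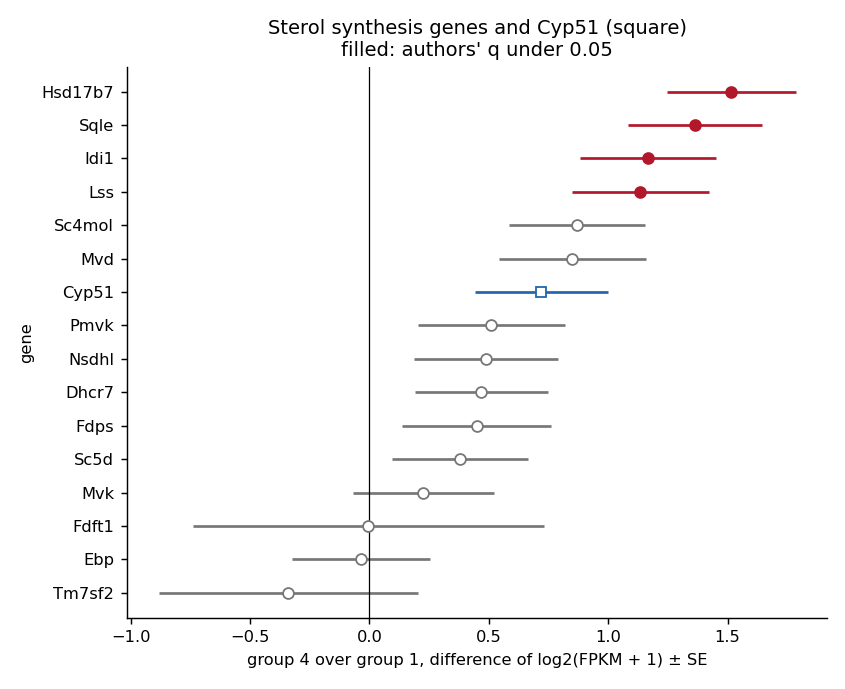
Differences of log2(FPKM + 1) in group 4 over group 1, with their SE, for 15 sterol synthesis genes (circles) and Cyp51 (blue square); filled red points had a q under 0.05 in the authors' deposited table. Cyp51 lies at 0.72 above the median of the genes shown, below the 4 filled genes.

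Steroid hormone and vitamin D P450s were low. None of the 6 steroid hormone genes reached 1 FPKM, and the highest was Cyp11a1, the enzyme that starts steroid synthesis from cholesterol, with 0.305, 0.386, 0.189 and 0.129 FPKM in groups 4, 3, 2 and 1. Cyp17a1, Cyp21a1 and the aromatase gene Cyp19a1 had at most 0.144, 0.0869 and 0.00435 FPKM in any group. Of the 3 vitamin D genes, Cyp27b1, which makes the active hormone, had at most 0.139 FPKM and Cyp2r1 at most 0.317 FPKM. Cyp20a1, an orphan P450 with no settled substrate, had 4.76 ± 1.33 FPKM in group 4, 5.86 ± 2.18 FPKM in group 3, 7.46 ± 1.18 FPKM in group 2 and 6.79 ± 0.77 FPKM in group 1, with no call.

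In all, 72 members stayed below 1 FPKM and 57 of these stayed below 0.1 FPKM in every group. Cyp2c38, Cyp2c53-ps, Cyp2c67, Cyp4a30b-ps and Cyp7a1 were listed at 0 throughout. The authors tested 36 members in 1 or more pairs, 10 of which were below 1 FPKM, and 62 in none. For those 62 the tables give levels without a test.

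The genes of proteins that P450s depend on mostly did not pass. Por, the reductase that feeds electrons to nearly all P450s of the endoplasmic reticulum, had 29.5, 28.9, 28.6 and 29.8 FPKM in groups 4, 3, 2 and 1. Of 10 redox partner genes 0 passed the authors' deposited test in either direction in any pair. Of all genes, between 0.294% and 8.9% passed in the 6 pairs, so a count of 0 of 10 lay near the background. In group 4 over group 1, 2 of the redox partner genes had an unadjusted p under 0.05, as did 24.6% of all genes. Of 9 heme synthesis genes, 1 was higher and 1 lower in group 4 than in group 1, against 5% higher and 3.91% lower of all genes. These were Alas2, the erythroid first enzyme of the pathway, with 17.1, 4.11, 4.60 and 5.57 FPKM in groups 4, 3, 2 and 1, and Uros, with 5.15, 6.34, 12.4 and 12.1 FPKM. Alas1, the first enzyme outside the red cell line, had 42.2, 41.3, 46.6 and 47.9 FPKM and did not pass.

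Genes that control P450 transcription mostly did not pass. Of 11 receptors and factors tested at 1 FPKM, 1 was higher in group 4 than in group 1 and 0 lower, against 5% higher and 3.91% lower of all genes. Before adjustment, p was under 0.05 for 3 of the 11 and for 24.6% of all genes, so the list lay near the background. The gene that passed was Vdr, the vitamin D receptor, at 5.20, 4.86, 1.96 and 1.73 FPKM in groups 4, 3, 2 and 1. Ahr, the aryl hydrocarbon receptor, had 2.21, 2.24, 1.55 and 1.48 FPKM without a call. The liver regulators Nr1i2, Hnf4a and Nr1h4 were at or below 0.1 FPKM in all groups, and Nr1i3 was at most 0.189 FPKM.

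Targets of the aryl hydrocarbon receptor outside the P450 family included genes that passed. Of the Cyp1 family only Cyp1b1 reached 1 FPKM, so Cyp1a1 and Cyp1a2 could not pass, and the difference between the 2 sets was not tested. Of 5 tested, 2 were higher in group 4 than in group 1 and 0 lower, against 5% higher and 3.91% lower of all genes. These were Nqo1, a quinone reductase, and Tiparp, and the median of the 5 was 1.04 against -0.08 for all genes. Nqo1 had 117, 86.6, 30.8 and 28.4 FPKM in groups 4, 3, 2 and 1, and it is also a target of Nfe2l2. Aldh3a1, the highest of the list, had 867, 577, 485 and 423 FPKM and did not pass in group 4 over group 1 (1.03 ± 0.64, q = 0.638 in the authors' deposited table). Ugt1a6a and Ugt1a7c did not pass either. Cyp1a1 and Cyp1b1 differed by 0.07 and 0.31 ± 0.24 in group 4 over group 1, and the first of these was below 1 FPKM. The log2(FPKM + 1) scale understates changes of such low genes, and their deposited log2 ratios were 0.31 and 0.68.

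Of 16 other drug-metabolising enzymes tested in group 4 over group 1, 1 was higher, the sulfotransferase Sult2b1, and 3 were lower, the epoxide hydrolase Ephx2 and the carboxylesterases Ces1d and Ces1f. Of all genes, 5% were higher and 3.91% lower there. The median was -0.33 against -0.08 for all genes. Ephx2, which hydrolyses the fatty acid epoxides that P450s make, had 13.2, 12.7, 26.6 and 30.1 FPKM in groups 4, 3, 2 and 1. Of 9 genes of steroid and arachidonate handling, 3 were higher and 0 lower, against the same 5% and 3.91% of all genes. These were Ptgs2, Alox12 and Alox12b, and the median of the 9 was 0.73. Alox12b, a lipoxygenase of barrier ceramides, had 122, 124, 59.0 and 51.2 FPKM in groups 4, 3, 2 and 1, the same order of group pairs as Cyp4f39.

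Cell type markers also differed between the groups, and in bulk RNA fewer cells of a type cannot be told apart from less RNA per cell. Tongue is built of muscle under a keratinised surface, and both were high here. Counts in brackets are for group 4 over group 1, where 5% of all genes were higher and 3.91% lower. Skeletal muscle markers summed to 14960, 12410, 25490 and 27650 FPKM in groups 4, 3, 2 and 1 (1 of 10 lower in group 4 than in group 1). Basal keratinocyte markers summed to 1528, 1664, 783 and 669 FPKM (4 of 8 higher) and markers of differentiated ones to 6783, 6934, 3510 and 3404 FPKM (3 of 9 higher), the direction in which Cyp4f39 and Cyp7b1 went. Salivary gland markers summed to 436, 3463, 2459 and 4238 FPKM (6 of 11 lower and 1 higher), adipocyte markers to 425, 322, 634 and 689 FPKM (3 of 9 lower) and fibroblast markers to 406, 405, 823 and 719 FPKM (3 of 8 lower). In group 4 against group 1 these sums and that of skeletal muscle were lower, as Cyp2a5, Cyp2a4 and Cyp2f2 were. The macrophage and endothelial sums, given below, were lower there too. Most of the macrophage sum was Lyz2, at 137 and 179 FPKM in groups 4 and 1. Cd68, Csf1r, Cd163 and Mrc1 had higher levels in group 4 than in group 1 and the other macrophage markers lower ones, with a median difference of -0.04. Between groups 3 and 2 the salivary gland sum was higher in group 3. The muscle, adipocyte, fibroblast, macrophage and endothelial sums and Cyp2a5, Cyp2a4 and Cyp2f2 were lower in group 3. The part of these cells in the P450 results was not tested. Salivary gland markers did not move as one. Dcpp1 had 11.9, 108, 360 and 787 FPKM and Aqp5 20.7, 52.6, 69.9 and 119 FPKM in groups 4, 3, 2 and 1. For neither did the difference of group 3 from group 2 pass. Dcpp1 was also lower in group 4 than in group 3 (q = 0.0196 in the authors' deposited table), where Cyp2a5 did not differ. Car6 had 2.72, 78.0, 2.53 and 5.36 FPKM, Pip 2.71, 13.4, 0.222 and 0.353 FPKM and Lpo 4.14, 4.65, 0.416 and 0.599 FPKM, all 3 higher in group 3 than in group 2. Bpifa2, the largest part of the sum in group 3, had 343, 2425, 1117 and 1301 FPKM. In group 2 over group 1, where Cyp2a5 alone of the P450 genes passed, 5 of 9 salivary gland markers were lower and 0 higher, against 0.305% and 0.594% of all genes. In group 3 over group 2, 3 of 13 were higher and 0 lower, against 1.61% and 0.229% of all genes. In group 4 over group 3, 5 of 13 were lower and 0 higher, against 0.124% and 0.17% of all genes.

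Neutrophil markers were higher in group 3 than in group 1 for 2 of 5 genes tested, S100a8 and S100a9, against 2.52% of all genes. In group 4 over group 1 they were higher for 6 of 7, against 5% of all genes, and Cxcr2 did not pass (q = 0.66 in the authors' deposited table). Macrophage markers (221, 182, 275 and 269 FPKM in groups 4, 3, 2 and 1) and endothelial markers (56.8, 43.5, 86.0 and 68.7 FPKM) were higher for 0 of 8 each, with 0 lower, against 3.91% of all genes lower. At an unadjusted p under 0.05 there were 0 macrophage genes and 1 endothelial gene, against 24.6% of all genes. Hepatocyte markers were low. The 12 of them summed to 4.34, 1.97, 3.46 and 3.42 FPKM, Alb was at most 0.245 FPKM, and Ttr, Fga, Tat, Hpd and Cps1 were at or below 0.1 FPKM in all groups. Only Ahsg and Fgb reached 1 FPKM. Ahsg had 1.18, 1.16, 2.21 and 2.30 FPKM in groups 4, 3, 2 and 1 with no call, and Fgb had 1.92, 0.0489, 0.137 and 0.172 FPKM and was higher in group 4 than in each of the other groups (q = 0.00178 against group 1 in the authors' deposited table).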

How the data were processed

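Poly-A RNA of 12 tongue samples was sequenced, per the labels' protocols. GSNAP 2011.11.17, edgeR and the build mm9 are named in the submitters' processing notes with no role given. The deposited tables hold FPKM levels per gene and group, which the series design text traces to Cufflinks, and 1 table covers each of the 6 pairs. The deposited log2 ratio of each pair equals that of its levels to within 4.38e-05. The score deposited beside it is the authors' test statistic, and their p-value equals its 2-sided normal p to within 0.001 in 100% of tested values. The deposited q-value matches, to within 3.40e-06, Benjamini-Hochberg values computed from all 92458 tests together. No label links the group numbers to treatments, and no values per sample were used, so depth is unknown and no test over samples was added.

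Differences subtract log2(FPKM + 1) of the lower-numbered group, which understates changes of low genes. SEs are the quotient of deposited log2 ratio and statistic, resolved into 4 group variances for 14600 genes (largest relative misfit 0.00184) and moved to this scale by the delta method. A gene passed where the authors tested it, at least 1 group had 1 FPKM and the authors' q fell under 0.05. Genes named in full were Cyp2a5, Cyp2e1, every member that passed in any pair and the 3 highest of each clan of families, 17 in all; of the lists, genes that passed and those of highest level. Other genes were named after their values were seen. There were 7 pathway lists and 10 cell type lists with 194 genes, 188 of them found by symbol; 3 further sterol synthesis genes are not reported here and enter no count or median of that list; genes over the authors' read limit stayed out of sums. The members and lists were chosen with earlier results of these data known. Other settings tried were q under 0.01, a fold of 2, no FPKM filter or 5 FPKM, adjustment or Bonferroni within a pair, a pseudocount of 0.1 and centring. Sequences came from RefSeq promoters of GRCm38.p6, of which 70 members matched, and from the mm9 genome with GENCODE M1, in which 96 members were found. Whether these SEs hold for the variation between the mice of a group was not tested. Python 3.11.15, pandas 2.3.3, NumPy 2.4.6, SciPy 1.17.1 and matplotlib 3.10.9 were used.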

Additional observations from a re-analysis of the deposited data

How the results depend on the processing

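No paired analysis was possible because the tables hold 1 level per group, and leaving out replicates was not run for the same reason. Requiring a fold of 2 or no minimum FPKM changed no count of P450 genes. With Bonferroni adjustment within the pair, 0 members were lower in group 2 over group 1, 0 higher and 1 lower in group 3 over group 1, 0 higher in group 4 over group 1, 0 higher in group 3 over group 2, and 0 higher and 0 lower in group 4 over group 2. That setting ended the calls of Cyp2f2, Cyp4f39 and Cyp7b1 in every pair, of Cyp2a4 in group 3 over group 1, and of Cyp2a5 in group 2 over group 1 and group 4 over group 2. At 5 FPKM, 1 member was lower in group 3 over group 1, 1 higher and 2 lower in group 4 over group 1 and 0 higher in group 4 over group 2, since fewer genes were tested. At a q under 0.01, 0 were higher in group 4 over group 2, where Cyp7b1 lost its call, and Cyp2f2 lost its call in group 4 over group 1. Cyp4f39 became the second gene higher in group 4 over group 2, giving 2, when p-values were adjusted within the pair or differences were centred. Both settings also called Cyp2c66 higher in group 4 over group 1, giving 3, and centring gave 2 higher in group 3 over group 1 and ended the call of Cyp2f2. The median of the members at 5 FPKM was -0.50 in group 4 over group 1, -0.62 in group 4 over group 2 and 0.06 in group 2 over group 1. In group 3 over group 1 and in group 3 over group 2 it was also below 0. No direction turned round under these settings for the genes named in full that were tested at 1 FPKM. Of the other genes, Cyp2j6 and Cyp2b10 stood at -0.14 and -0.13 in group 4 over group 1, so centring on -0.15 turned them positive. Depth per sample is unknown, and the wide SEs of groups 4 and 3 limit what could be detected between them.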
